A study of Mus musculus with 4 samples.

Results

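The ATF4 arm of the integrated stress response was read as 44 genes in the deposited expression matrix of 49585 genes. The genes were chosen by name, as stress transcription factors and their feedback effectors, genes of amino acid synthesis and transport, secreted stress factors and cytosolic tRNA synthetases, and each symbol was found exactly once. The cells were 4T1–HM and 4T1–LM, 2 clones of the murine TNBC line 4T1, each derived from 1 cell, with high (HM) or low (LM) metastatic capacity, so each type is represented by 1 clone. Cultures of each clone received deferasirox (DFX), an iron chelator, at 50 μmol/L in DMSO, or DMSO alone, and were taken after 48 h. The libraries are named HM_Ctrl and LM_Ctrl for DMSO, and HM_DFX and LM_DFX for the chelator. There was 1 library per condition, so differences between libraries could not be set against replicates and p-values are not given.

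In the integrated stress response, kinases that sense amino acid shortage, unfolded protein in the endoplasmic reticulum, viral RNA or heme deficiency phosphorylate the translation factor eIF2α. Bulk protein synthesis then slows, while the mRNA of the transcription factor ATF4 is translated more. ATF4 raises genes that make, import and charge amino acids and, when stress lasts, factors such as CHOP that can lead to cell death.

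Most of the genes stood higher after DFX in both clones. By log2 ratio Atf3 and Ppp1r15a were the 2 highest in each clone, and Chac1 fell in HM. Values are FPKM, fragments scaled for gene length and library total, and a change is the log2 ratio of FPKM + 1 between 2 libraries, on which genes of low FPKM change by less than their true ratio. Of the 44 genes, 42 reached an FPKM of 1 in at least 1 library, while Gdf15 and Cbs did not. Slc7a3 reached it in HM_DFX alone, so it is counted only through the library where it was high. In HM_DFX, 15 of the 42 were at least 2-fold higher than in HM_Ctrl and 1 was at least 2-fold lower, where the shares over the 12669 expressed genes were 6.93% higher and 12.4% lower. In LM_DFX, 19 of the 42 were at least 2-fold higher than in LM_Ctrl and 0 lower, against 7.09% and 8.72% of expressed genes. The median log2 ratio was 0.83 in HM and 0.90 in LM, beside medians of −0.10 and −0.04 over all expressed genes. Because the median over all genes in HM was shifted, the libraries were also rescaled so that the median gene matched the geometric mean over all 4 (median–ratio scaling). This raised the HM count to 20 higher and 1 lower, against 8.95% and 10.1% of expressed genes, and gave 20 higher and 0 lower in LM, against 7.67% and 7.98%.

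The response of a gene was above 0 in both clones for 36 of the 42 genes and below 0 in both for 2, Phgdh and Slc1a5. It had opposite signs for 4, Chac1, Sesn2, Psat1 and Pycr1. In single clones it was above 0 for 37 of the 42 in HM and 39 in LM. Over the 12669 expressed genes it was above 0 for 5531 in HM and 5929 in LM, and the share above 0 in both clones was not taken. At least 2-fold higher in both clones were 12 genes (Atf3, Atf5, Cebpg, Trib3, Ppp1r15a, Asns, Slc3a2, Aars, Eprs, Sars, Wars and Yars), as were 3.46% of expressed genes. Just inside the threshold were Sars in HM, with a log2 ratio of 1.01, and Wars in LM, with 1.06. Just outside it were Tars in HM, with 0.96, and Slc7a1 in LM, with 0.97.

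**Figure D1:**
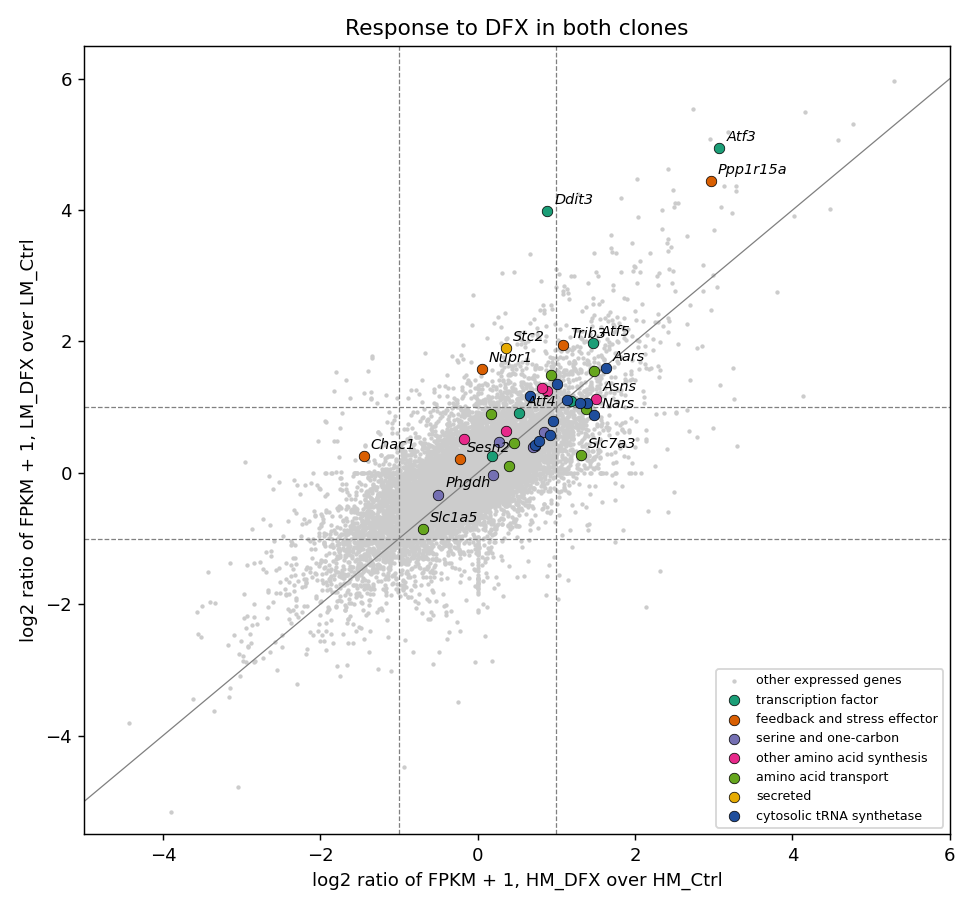
Log2 ratio of FPKM + 1 under DFX in 4T1–HM (horizontal axis) against 4T1–LM (vertical axis), 1 library per condition. Coloured points are the 42 expressed genes by role, grey points are the other expressed genes, dashed lines mark 2-fold and the solid line marks equal response. Ddit3 lies far above the line at 0.88 and 3.99, Chac1 lies to the left at −1.45 and 0.25, and most of the tRNA synthetases lie near the line.

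As a share of all fragments, the 44 genes together accounted for 0.891% of HM_Ctrl and 1.74% of HM_DFX, and for 0.773% of LM_Ctrl and 1.48% of LM_DFX. The exact (Clopper–Pearson) 95% intervals were 0.887% to 0.896%, 1.73% to 1.75%, 0.769% to 0.778% and 1.48% to 1.49%. Like those below, these intervals hold the error of counting and leave out how far separate cultures would differ. The 11 tRNA synthetases supplied the largest part, from 0.346% to 0.784% of fragments in HM and from 0.317% to 0.654% in LM. All measures are relative to the library, so more RNA of a gene and less RNA of other genes cannot be told apart, nor, in bulk cultures, fewer cells with a transcript and less of it per cell.

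The depth of each library was recovered from the whole steps in which FPKM moved, and lay between 14363063 fragments (HM_DFX) and 21883855 (LM_DFX). The 5 epithelial markers Epcam, Krt8, Krt18, Krt14 and Cdh1 were each above an FPKM of 1 in every library. Their summed FPKM was 1489 without and 445 with DFX in HM, and 2076 without and 932 with DFX in LM, which moved with the treatment, and its part in the results was not tested. The 5 leukocyte markers summed to at most 0.0139, the 3 endothelial markers to at most 0.188, and of the 4 fibroblast markers only Pdgfra passed an FPKM of 1. Tfrc, the transferrin receptor whose mRNA is stabilised at low iron, was at 102 without and 175 with DFX in HM, and 107 without and 188 with DFX in LM. Ndrg1, a gene raised by chelators, had log2 ratios of 1.70 in HM and 3.62 in LM, and Vegfa, a target of hypoxia signaling, 0.97 and 1.24.

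ATF4 binds composite C/EBP–ATF response elements, so the promoters were searched for the letters TGATGNAA on both strands. RefSeq promoters (build GRCm38.p6, from 250 bases before to 50 after each start) were matched for 36 of the 44 genes. The letters were present in 12 of the 36, where they occurred in 4.51% of the 27025 genes with a promoter and in 2.57% of the 8634 expressed genes matched by symbol. They were in 5 of 7 tRNA synthetases, 3 of 5 feedback effectors, 2 of 5 genes of other amino acid synthesis and 1 of 5 transporters. They were also in 1 of 6 transcription factors, 0 of 6 serine and one–carbon genes and 0 of 2 secreted factors. Of the 18 matched genes at least 2-fold higher under DFX in a clone, 6 held the letters, as did 6 of the 18 others. The genes were chosen as known or likely ATF4 targets, some of which became known through such elements, so this is a description of the set. Of the matches that lie wholly before the start, that of Aars, 112 bases before it, is left out and 7 are shown. The 7 were picked because they lie in genes with contrasting responses, from Atf3 and Asns, which rose in both clones, to Chac1, which fell in HM. Each is written 5′ to 3′ on the strand of the gene, with the 8 matching letters in capitals. TTGCATCA and TTTCATCA are matches on the other strand.
Atf3: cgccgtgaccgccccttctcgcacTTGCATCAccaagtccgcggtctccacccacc
Chac1: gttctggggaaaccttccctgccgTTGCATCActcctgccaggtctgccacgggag
Nupr1: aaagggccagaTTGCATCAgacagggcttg
Asns: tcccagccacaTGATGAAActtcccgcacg
Pycr1: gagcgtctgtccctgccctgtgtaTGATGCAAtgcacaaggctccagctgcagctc
Gars: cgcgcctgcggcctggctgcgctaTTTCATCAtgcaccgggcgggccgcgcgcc
Tars: caggagtcccgTTGCATCAgctggtt

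These stretches lie at chr1:191183412-191183467 (Atf3, minus strand), chr2:119351025-119351080 (Chac1, plus), chr7:126625562-126625591 (Nupr1, minus), chr6:7693214-7693243 (Asns, minus), chr11:120643820-120643875 (Pycr1, minus), chr6:55037947-55038000 (Gars, plus) and chr15:11399659-11399684 (Tars, minus). The first letter of the match stood 110 bases before the start in Atf3 and in Nupr1, 193 in Chac1, 23 in Asns, 103 in Pycr1, 30 in Gars and 15 in Tars. A stretch ends at the start, and is kept short where it overlaps an annotated exon. The sequence is that of the reference and was not read from 4T1 cells.

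Atf4 (ENSMUSG00000042406, chromosome 15 from 80255184 to 80257540 of mm10) was among the most abundant mRNAs in every library. Its FPKM was 360.0 without and 521 with DFX in HM, and 263 without and 495 with DFX in LM, which ranked it 110th, 72nd, 170th and 83rd of the expressed genes. Both DFX libraries were above both controls. The ratio of DFX to control, taken here and below on FPKM with nothing added, was 1.45 in HM (95% counting interval 1.41 to 1.48) and 1.88 in LM (1.83 to 1.94), under 2-fold in each clone. Control of ATF4 acts largely on translation, which RNA–seq does not measure.

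Of the 4 kinases that phosphorylate eIF2α, Eif2ak3 (PERK), the kinase of the endoplasmic reticulum, rose in both clones. Its FPKM was 7.07 without and 25.9 with DFX in HM, and 2.94 without and 12.9 with DFX in LM, with log2 ratios of 1.74 and 1.82. Eif2ak2 (PKR), which senses double–stranded RNA and is induced by interferon, had log2 ratios of 0.70 in HM and 1.46 in LM. Eif2ak1, the heme–regulated kinase, had 0.15 and 0.10, and Eif2ak4 (GCN2), which senses uncharged tRNA, had −0.40 and −0.66. Over the 14 genes read upstream of ATF4, among them those of the eIF2B subunits, 1 was at least 2-fold higher and 1, the mitochondrial protease gene Oma1, lower in HM, and 2 were higher and 0 lower in LM. Over all expressed genes, 6.93% were higher and 12.4% lower in HM, and 7.09% and 8.72% in LM. The share higher in HM, 7.14% of the 14, was thus near that of all expressed genes.

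Of the 6 transcription factors, Atf4 included, 3 were at least 2-fold higher in HM and 4 in LM. Over all expressed genes the shares were 6.93% and 7.09%. Atf3 (ENSMUSG00000026628, chromosome 1 from 191170296 to 191218039), a stress–induced member of the ATF/CREB family, had an FPKM of 45.0 and 385 in the HM control and DFX libraries and 5.05 and 184 in those of LM. It was the lowest in LM_Ctrl and the highest in HM_DFX. The ratio was 8.56 in HM (8.13 to 9.03) and 36.6 in LM (31.4 to 42.8), the 19th and the 8th largest log2 ratio of the 12669 expressed genes.

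Ddit3 (ENSMUSG00000025408, chromosome 10 from 127290774 to 127296288) encodes CHOP, the factor of prolonged stress. Its FPKM was 79.8 without and 148 with DFX in HM, and 6.05 without and 111 with DFX in LM. LM_Ctrl, with 163 fragments, stood far below the other 3 libraries. The ratio under DFX was 18.3 in LM (15.7 to 21.6) and 1.85 in HM (1.76 to 1.95), which is under 2-fold as deposited and past it after median–ratio scaling. Other genes overlap 10.9% of the exon length of Ddit3, among them Mars on the other strand, whose log2 ratios were 0.29 in HM and 0.23 in LM.

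Atf5, a relative of Atf4 that is also controlled through translation, rose in both clones, from an FPKM of 58.2 to 163 in HM and from 40.4 to 161 in LM. The ratios were 2.81 (2.66 to 2.96) and 3.99 (3.76 to 4.24), and the levels under DFX were nearly equal in the clones. The bZIP partner Cebpg also rose in both, from 15.5 to 36.4 in HM and from 13.5 to 29.9 in LM. Cebpb, a C/EBP family member with which ATF4 can pair, was at 132 without and 149.8 with DFX in HM, and 93.9 without and 113 with DFX in LM, with log2 ratios of 0.18 and 0.26. An exon of Tmem189 on the other strand overlaps 20.7% of its length, so counting without strand would mix their reads.

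The feedback and effector genes spanned a wide range, from −1.45 to 2.96 on the log2 scale in HM and from 0.21 to 4.44 in LM. Ppp1r15a (ENSMUSG00000040435, chromosome 7 from 45522916 to 45526268) encodes GADD34, the phosphatase subunit that removes phosphate from eIF2α and ends the response. It was at 20.9 and 169.9 in the HM control and DFX libraries and 3.85 and 104 in those of LM. Both DFX libraries were above both controls, with ratios of 8.11 in HM (7.60 to 8.67) and 27.1 in LM (23.3 to 31.6). Its constitutive counterpart Ppp1r15b had log2 ratios of 0.79 and 0.13.

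Trib3 (ENSMUSG00000032715, chromosome 2 from 152337422 to 152344032), a pseudokinase that restrains ATF4 and CHOP, rose from 78.8 to 168 in HM and from 36.0 to 141 in LM. The ratio was 2.13 (2.03 to 2.23) in HM and 3.91 (3.67 to 4.16) in LM.

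Chac1 (ENSMUSG00000027313, chromosome 2 from 119351229 to 119354381) encodes an enzyme that degrades glutathione. It was the sole member of the 42 to fall past 2-fold under DFX in either clone. Its FPKM was 154 without and 55.8 with DFX in HM, and 35.3 without and 42.1 with DFX in LM, so HM_Ctrl stood above the other 3 libraries. The ratio was 0.362 in HM (0.340 to 0.385) and 1.19 in LM.

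Sesn2, a sestrin that restrains mTORC1 when leucine is short, tracked the clone more than the treatment. It was at 26.1 and 22.1 in the HM control and DFX libraries and 7.48 and 8.84 in those of LM, with log2 ratios under DFX of −0.23 and 0.21. Nupr1, a small nuclear stress protein, was at 45.0 without and 46.5 with DFX in HM, and 20.6 without and 63.7 with DFX in LM. It rose in LM, with a ratio of 3.09 (2.86 to 3.34), while the ratio in HM was 1.03 (0.968 to 1.10).

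**Figure D2:**
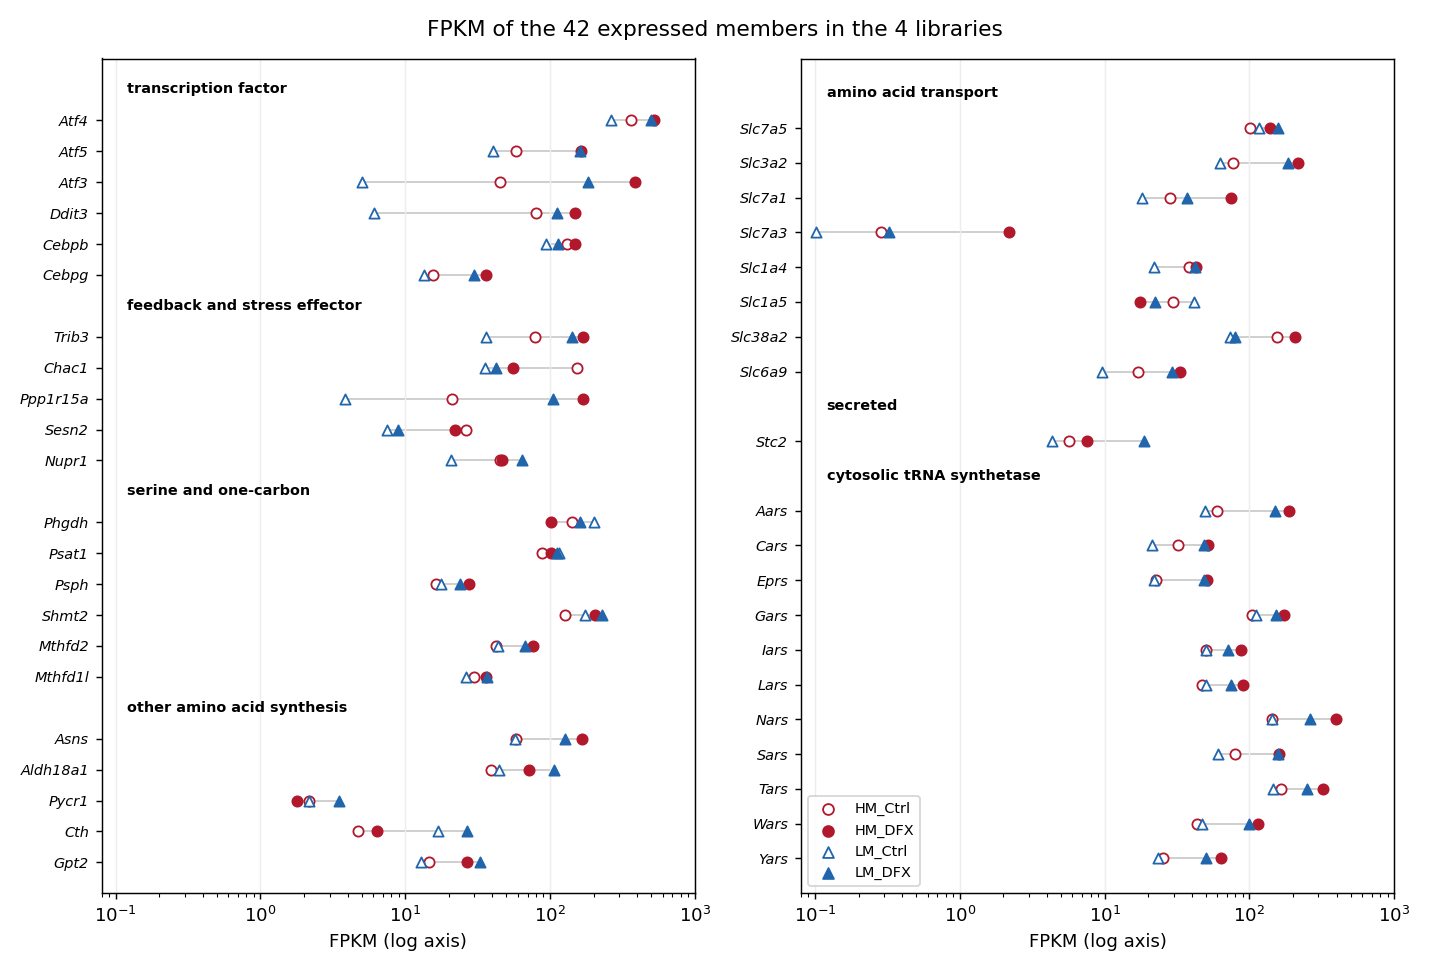
FPKM (log axis) of the 42 expressed genes in each of the 4 libraries, grouped by role. Open symbols are DMSO and filled symbols DFX, circles 4T1–HM and triangles 4T1–LM. The open triangles of Atf3, Ddit3 and Ppp1r15a, at 5.05, 6.05 and 3.85, lie far to the left of the other symbols of these genes, and the open circle of Chac1 lies to the right of its other symbols, at 154.

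The 6 genes of serine and mitochondrial one–carbon synthesis had a median log2 ratio of 0.48 in HM and 0.40 in LM, against −0.10 and −0.04 over all expressed genes. At least 2-fold higher were 0 of the 6 in either clone, a count too small to be read against the 6.93% and 7.09% of expressed genes that were. The highest was Mthfd2, a folate enzyme of mitochondria, at 42.3 without and 76.5 with DFX in HM, and 43.6 without and 67.4 with DFX in LM, with log2 ratios of 0.84 and 0.62. Shmt2, which makes glycine and one–carbon units from serine, had 0.70 and 0.39, Psph, the last enzyme of serine synthesis, 0.73 and 0.41, and Mthfd1l, another folate enzyme of mitochondria, 0.27 and 0.47.

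The lowest was Phgdh, the first enzyme of serine synthesis, at 142 and 101 in the HM control and DFX libraries and 201 and 160.2 in those of LM. Its log2 ratios were −0.50 and −0.33, and 56.3% of its 31-mers also occur in another gene, chiefly Gm7901 and Gm9347, so its level is uncertain. Psat1, the aminotransferase between Phgdh and Psph, had log2 ratios of 0.20 and −0.04. The enzymes of cytosolic one–carbon metabolism had log2 ratios over 5 expressed genes from −0.91 to 0.69 in HM and from −0.81 to 0.37 in LM. Both extremes below 0 were Mthfd1.

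Among the other enzymes of amino acid synthesis, Asns (ENSMUSG00000029752, chromosome 6 from 7675169 to 7693254), asparagine synthetase, rose in both clones. Its FPKM was 57.8 without and 165 with DFX in HM, and 57.5 without and 127 with DFX in LM. The 2 controls had a ratio of HM to LM of 1.00, and the ratios under DFX were 2.86 (2.73 to 2.99) and 2.21 (2.11 to 2.31).

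Aldh18a1, which makes the precursor of proline, was at 38.8 and 72.0 in HM, a ratio of 1.86, and rose from 44.6 to 107 in LM, a ratio of 2.40. Pycr1, a later enzyme of that route, stayed between 1.80 and 3.51 in all libraries. Gpt2, an alanine aminotransferase of mitochondria, was at 14.6 and 26.5 in HM and rose from 12.9 to 32.9 in LM.

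Cth, which makes cysteine from cystathionine, differed between the clones. It was at 4.71 without and 6.34 with DFX in HM, and 16.9 without and 26.7 with DFX in LM, so both HM libraries were below both LM libraries. Cbs, the enzyme before Cth in this pathway, was counted with 0 fragments in both LM libraries, 2 in HM_Ctrl and 1 in HM_DFX, and was not detectable above this level in any of them.

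Transporters of amino acids had a median log2 ratio of 0.70 in HM and 0.67 in LM, with 3 of 8 at least 2-fold higher in HM and 2 in LM. Over all expressed genes the shares were 6.93% and 7.09%. Among the 3, Slc7a3 passed the filter through HM_DFX alone. Slc3a2 (ENSMUSG00000010095, chromosome 19 from 8706882 to 8723369), the heavy chain shared by several exchangers, was at 76.8 and 216 in the HM control and DFX libraries and 62.6 and 185 in those of LM. The ratios were close, 2.82 in HM (2.72 to 2.92) and 2.96 in LM (2.85 to 3.07). Its light chain for large neutral amino acids, Slc7a5, was at 101, 139, 116 and 158 in the same order, with log2 ratios of 0.46 and 0.45.

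The cationic amino acid transporter Slc7a1 was at 28.1 without and 74.9 with DFX in HM, and 18.2 without and 36.8 with DFX in LM, with ratios of 2.66 (2.58 to 2.75) and 2.02 (1.94 to 2.10). With 1 added to each FPKM it was past 2-fold in HM, and just below in LM. Slc7a3, of the same family, was barely expressed, from 18 fragments in HM_Ctrl to 119 in HM_DFX, and from 6 in LM_Ctrl to 27 in LM_DFX. Its FPKM was 0.284 and 2.19 in HM and 0.101 and 0.326 in LM, and its ratios were 7.71 (4.67 to 13.5) and 3.23 (1.31 to 9.58).

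The glycine transporter Slc6a9 was at 17.0 and 33.4 in HM, with a log2 ratio of 0.93, and rose from 9.64 to 29.0 in LM, with 1.49. Genes on the other strand overlap 30.2% of its exon length. Slc38a2, which imports small neutral amino acids, was at 156 without and 206 with DFX in HM, and 73.7 without and 79.5 with DFX in LM, with both HM libraries above both LM libraries. Slc1a4, an exchanger of alanine, serine and cysteine, had log2 ratios of 0.17 and 0.89.

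Slc1a5, the glutamine exchanger, was below 0 in both clones. Its FPKM was 29.5 and 17.7 in the HM control and DFX libraries and 41.4 and 22.3 in those of LM, and the ratios were 0.601 (0.558 to 0.648) and 0.538 (0.508 to 0.570). Both DFX libraries were below both controls. Among 21 other amino acid transporters, of which 12 were expressed, the median log2 ratio was −0.05 in HM and −0.28 in LM. In this list the cystine carrier Slc7a11 (1.99 and 1.42) and the lysosomal transporter Slc38a7 (1.28 and 1.74) rose in both clones, and the taurine transporter Slc6a6 fell in LM (−1.58), with −0.61 in HM.

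Of the secreted factors, Stc2, a glycoprotein of the stanniocalcin family, was at 5.71 without and 7.59 with DFX in HM, and 4.30 without and 18.8 with DFX in LM. LM_DFX stood above the other 3 libraries. The ratio was 4.37 in LM (3.90 to 4.91) and 1.33 in HM. Gdf15, a cytokine of cellular stress, had 7 fragments in LM_DFX, 1 in HM_Ctrl and 0 in the others, which is too few for a fold change.

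All 11 cytosolic tRNA synthetases of the set, the enzymes that load an amino acid onto its tRNA, had log2 ratios above 0 in both clones. They ranged from 0.66 to 1.63 in HM and from 0.43 to 1.59 in LM, with medians of 1.01 and 1.06. In each clone 6 were at least 2-fold higher, beside 6.93% of expressed genes in HM and 7.09% in LM. Aars (ENSMUSG00000031960, chromosome 8 from 111033144 to 111057664), for alanine, had the highest ratio in both. Its FPKM was 59.8 without and 187 with DFX in HM, and 49.7 without and 151 with DFX in LM, with ratios of 3.13 (3.06 to 3.21) and 3.05 (2.97 to 3.13). Exosc6 on the same strand and Gm24103 on the other overlap 15.1% of its exon length.

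The lowest in HM was Cars, for cysteine, at 32.1 without and 51.4 with DFX, and it rose from 21.1 to 48.5 in LM. In LM the lowest was Gars, for glycine, at 112 and 152, with 104 and 173 in HM. Nars, for asparagine, was at 143 in both controls and at 399 in HM_DFX and 263 in LM_DFX, with ratios of 2.80 (2.71 to 2.88) and 1.84 (1.79 to 1.90). For serine, Sars was at 79.1, 160.0, 60.4 and 157 in HM_Ctrl, HM_DFX, LM_Ctrl and LM_DFX. These intervals of Nars do not overlap, but the spread between cultures is unknown.

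Eprs, the joined synthetase for glutamate and proline, rose from 22.6 to 50.8 in HM and from 21.9 to 48.3 in LM. Wars, for tryptophan, rose from 43.3 to 115 and from 47.4 to 100.2. Yars, for tyrosine, rose from 25.2 to 63.3 and from 23.4 to 50.2. For these 3 genes each DFX library was above both controls. Iars, Lars and Tars, for isoleucine, leucine and threonine, had log2 ratios of 0.78, 0.92 and 0.96 in HM and of 0.49, 0.58 and 0.79 in LM.

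The other 9 cytosolic synthetase genes, which are not in the set, were read beside them. None passed 2-fold in either clone, and their median log2 ratio was 0.19 in HM and 0.09 in LM. The highest was Rars, for arginine, with 0.92 and 0.90. The lowest was Vars in HM, for valine, with −0.45, and Hars in LM, for histidine, with −0.47. Of the 17 mitochondrial synthetase genes, 0 were at least 2-fold higher, while 4 were at least 2-fold lower in HM and 3 in LM. Over all expressed genes, 6.93% were higher and 12.4% lower in HM, and 7.09% and 8.72% in LM. The direction was mixed, with 6 of the 17 above 0 in HM and 4 in LM. The highest was Lars2, for leucine, with log2 ratios of 0.99 and 0.81. Aars2, for alanine in mitochondria, was at 5.99 and 2.08 in the HM control and DFX libraries and 9.49 and 2.42 in those of LM, opposite in direction to Aars. Pars2, for proline, also fell in both clones, with log2 ratios of −1.22 in HM and −1.01 in LM, and Iars2, for isoleucine, fell in HM. The members and lists were chosen with earlier results of these data known, and the difference between these lists was not tested.

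**Figure D3:**
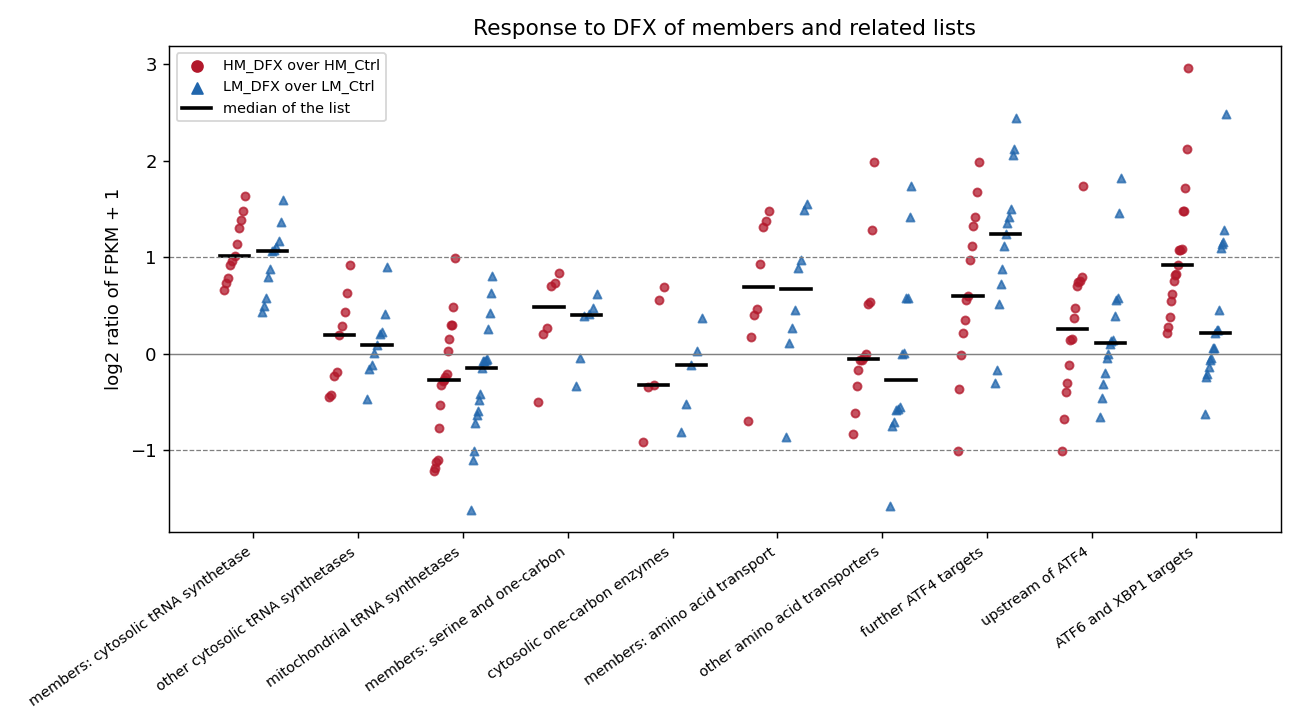
Log2 ratio of FPKM + 1 under DFX (vertical axis) for expressed genes of 3 roles of the set and of 7 related lists, with 4T1–HM as circles and 4T1–LM as triangles. Bars mark the median of a list and dashed lines mark 2-fold. The tRNA synthetases of the set have medians of 1.01 and 1.06, and the mitochondrial synthetases −0.27 and −0.15.

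Without DFX, the 5 feedback genes and 2 of the 6 transcription factors, Ddit3 and Atf3, stood above their LM_Ctrl level by at least 2-fold in HM_Ctrl, and the other 4 transcription factors were within 2-fold. At least 2-fold higher were 8 of the 42 genes and 1 was at least 2-fold lower, beside 3.65% and 3.15% of expressed genes. All 5 feedback and effector genes were among the 8, with ratios of HM to LM of 5.44 for Ppp1r15a (4.63 to 6.41), 4.37 for Chac1 (4.07 to 4.70), 3.48 for Sesn2, 2.19 for Trib3 and 2.18 for Nupr1. Ddit3 was 13.2-fold higher (11.3 to 15.6) and Atf3 8.92-fold (7.61 to 10.5), which placed them 5th and 10th of all expressed genes by log2 ratio. The last of the 8 was Slc38a2, with a ratio of 2.12.

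The ratio for Atf4 itself was 1.37 (1.33 to 1.41). The gene that was lower was Cth, with a ratio of 0.279 (0.239 to 0.325). The tRNA synthetases differed little between the untreated clones, with log2 ratios from −0.13 to 0.58 and a median of 0.05. For the serine and one–carbon genes these were from −0.49 to 0.17, with a median of −0.25.

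With DFX, the clones were closer for the stress factors. Of the 42 genes, 5 were at least 2-fold higher in HM_DFX than in LM_DFX and 2 lower, beside 3.31% and 5.05% of expressed genes. The 5 were Atf3, with a ratio of 2.09 (2.03 to 2.15), Sesn2, Slc7a1, Slc38a2 and Slc7a3, which passed the filter through HM_DFX alone. The 2 were Cth, with 0.238 (0.207 to 0.271), and Stc2, with 0.404 (0.367 to 0.443). Ddit3 was 1.33-fold higher in HM_DFX (1.28 to 1.39), Ppp1r15a 1.63-fold (1.58 to 1.69), Trib3 1.19-fold and Atf4 1.05-fold. All 11 tRNA synthetases had a log2 ratio above 0, as did 5696 of the 12669 expressed genes, but none of the 11 was above 0.60.

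**Figure D4:**
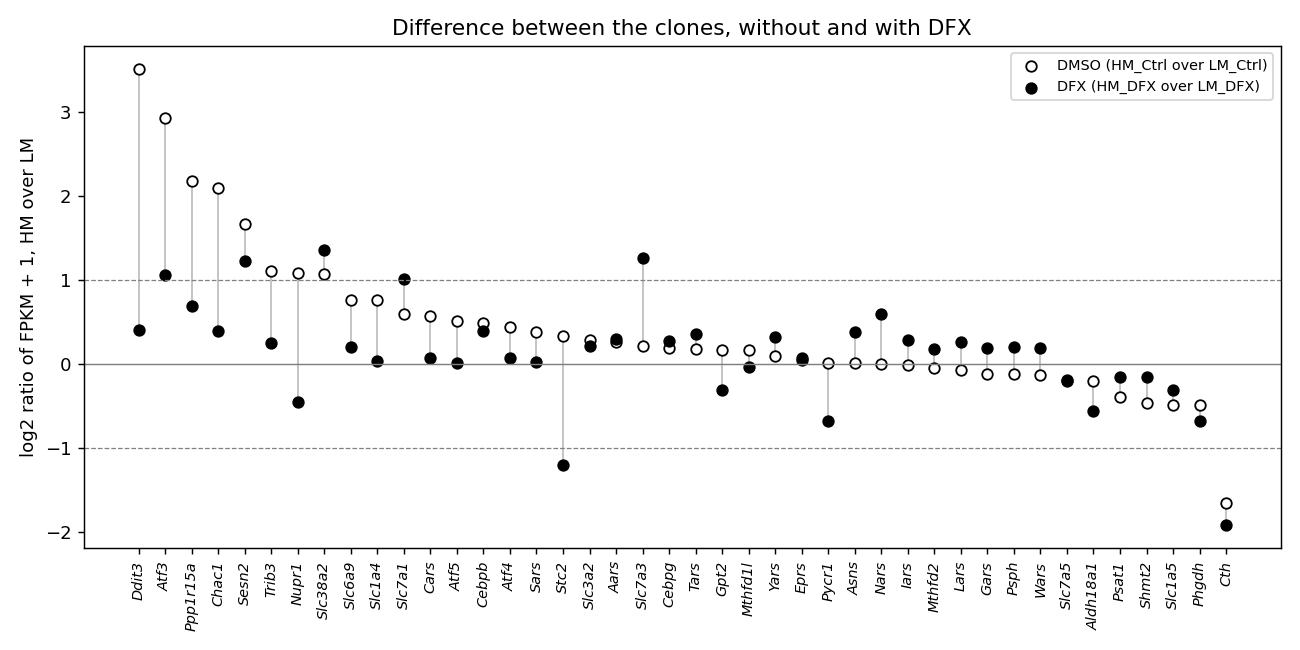
Log2 ratio of FPKM + 1 of 4T1–HM over 4T1–LM for each of the 42 expressed genes, ordered by the ratio in DMSO. Open points compare the DMSO libraries and filled points the DFX libraries, and dashed lines mark 2-fold. Ddit3 is at 3.52 without and 0.41 with DFX, and Cth is below 0 in both, at −1.65 and −1.92.

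The response to DFX itself was compared between the clones as the log2 ratio in HM minus that in LM, which uses all 4 libraries. It was at least 2-fold lower in HM for 6 of the 42 genes and higher for 1, beside 5.38% and 3.52% of expressed genes. The 6 were Ddit3 (−3.11), Atf3 (−1.87), Chac1 (−1.70), Stc2 (−1.55), Nupr1 (−1.53) and Ppp1r15a (−1.48). Ddit3 ranked 12666th from the highest of the 12669 expressed genes in this comparison. The gene with a higher value in HM was Slc7a3 (1.04), which rested on 6 fragments in LM_Ctrl and passed the filter through HM_DFX alone. By contrast, Aars (0.04), Eprs (0.03), Slc7a5 (0.01) and Slc3a2 (−0.07) had nearly the same log2 response in the clones. Over the set the median difference was −0.07, against −0.08 over all expressed genes. Because the same 4 libraries enter, a lower response in HM is also a smaller excess of HM over LM with DFX than without. Of the 5 of these genes that rose in LM, Ddit3, Atf3, Nupr1 and Ppp1r15a were each at least 2-fold lower in LM_Ctrl than in HM_Ctrl, while for Stc2 the controls were within 2-fold, with a ratio of HM to LM of 1.33.

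Further known targets of ATF4 outside the set were read in the same way. Of 13 expressed, 5 were at least 2-fold higher in HM and 8 in LM, with medians of 0.60 and 1.24. Among the 8, Vldlr (0.562 without and 2.40 with DFX in LM) and Aldh1l2 (0.136 and 1.89) passed the filter through LM_DFX alone. They are thus counted only through the library where they were high. Over all expressed genes, 6.93% and 7.09% were at least 2-fold higher. Sqstm1, an autophagy receptor that other stress pathways also raise, was at 428 without and 1376 with DFX in HM, and 136 without and 744 with DFX in LM. The mitochondrial protease gene Lonp1 rose by 1.42 and 2.12 on the log2 scale, and Fam129a by 1.32 and 2.06. Slc7a11, named above, is also in this list. So is Vegfa, read above as a target of hypoxia signaling, which is among the 8 in LM. Ddit4, an inhibitor of mTORC1, was lower in HM_DFX than in HM_Ctrl, with a log2 ratio of −1.01, and had −0.30 in LM.

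Targets of ATF6 and XBP1, the other arms of the unfolded protein response, showed another pattern. Of 17 expressed, 8 were at least 2-fold higher in HM and 5 in LM, beside 6.93% and 7.09% of expressed genes. The medians were 0.92 and 0.21. The chaperone gene Hspa5 rose by 2.12 in HM and 1.16 in LM on the log2 scale, and the co–chaperone gene Dnajb9 by 2.96 and 2.48. Sdf2l1 also rose in both, by 1.72 and 1.14. For Manf, a secreted stress protein, the log2 ratios were 1.48 and 0.21. The response was higher in HM than in LM for 15 of the 17, and for 5506 of the 12669 expressed genes. Among the 17 it was lower for 2, Herpud1 (0.75 in HM and 1.28 in LM) and Sel1l (1.07 and 1.10). Log2 ratios were below 0 for 6 of the 17 in LM and for 0 in HM. The lowest in LM was Calr, with −0.62, and it had 0.62 in HM. The difference in response between the clones had a median of 0.62 for the 17 genes, against −0.07 for the 42 genes of the set, and was not tested.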

How the data were processed

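RNA–seq was available from 4 libraries of 4T1–HM and 4T1–LM cells, 1 per condition, grouped by their labels. The deposited values are FPKM per gene, which the authors computed from reads aligned to mm10. The submitters' processing notes name FastQC, Trimmomatic, HISAT2 and featureCounts, and a directional library kit was used, while versions and the strand setting of counting are not given in the sources used here. The members and lists were chosen with earlier results of these data known.

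Genes that reached 1 FPKM in any library were kept, and log2 ratios were taken after adding 1. A call was a 2-fold ratio, set beside the percentage of expressed genes past it. Whole fragments were recovered from FPKM and GENCODE M21 exon lengths. For 96.8% of the 18236 genes with a value above 0 and the same coordinates in M21, the recovered number lay within 0.02 of a whole number in every library. These gave depths and exact (Clopper–Pearson) 95% intervals for counting error. The study's count test was not run, since 1 library per condition has no replicate. Values are given for Atf4, for each gene past 2-fold in a comparison and for the extremes of each role. From related lists they are given for genes past 2-fold in both clones, the 3 largest changes and the eIF2α kinases. Alternatives changed the pseudocount, filter, scaling and threshold. Python 3.11.15, pandas 2.3.3, numpy 2.4.6 and scipy 1.17.1 were used. Some items are not reported here.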

Additional observations from a re-analysis of the deposited data

Results flagged for a closer look

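Chac1 moved in opposite directions in the clones after DFX. Its FPKM went from 154 to 55.8 in 4T1–HM, a log2 ratio of −1.45, and from 35.3 to 42.1 in 4T1–LM, a log2 ratio of 0.25. The response in HM minus that in LM was −1.70 on the log2 scale. With 1 library per condition this difference was not tested.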

How the results depend on the processing

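No paired analysis was possible because each condition had 1 library and the labels give no replicate numbers, and for the same reason no library could be left out. Over the other pseudocount, filters and scalings, the median log2 ratio of the set stayed between 0.80 and 0.96 for DFX in HM, 0.88 and 0.96 for DFX in LM, 0.18 and 0.22 between the controls, and 0.19 and 0.27 between the DFX libraries. The median difference in response ran from −0.08 to 0.01, so its sign depended on the setting. No gene past 2-fold lost that call under the other pseudocount or scalings. Median–ratio scaling added Ddit3, Aldh18a1, Slc6a9, Lars and Tars to those higher in HM_DFX than in HM_Ctrl, and Slc7a1 to those higher in LM_DFX than in LM_Ctrl. The pseudocount of 0.1 added Slc7a1 and Slc7a3 in LM.

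Counts moved mainly with the threshold. At 1.5-fold, DFX left 27 genes higher and 2 lower in HM (16% and 26% of expressed genes), and 26 higher and 1 lower in LM (16.5% and 20%), so the gap between 15 and 19 at 2-fold was not seen there. In HM_DFX 4 were lower than in LM_DFX (14.6%), and 2 had a higher response in HM (9.77%). At 4-fold, DFX left 2 higher and 0 lower in HM (0.876% and 1.31%) and 3 higher in LM (1.42%), 4 were higher and 0 lower in HM_Ctrl than in LM_Ctrl (0.332% and 0.434%), 0 were higher and 0 lower in HM_DFX than in LM_DFX (0.284% and 0.466%), and the response was higher in HM for 0 (0.395%) and lower for 1 (0.466%). With a filter on the mean FPKM, 0 genes had a higher response in HM, since Slc7a3 was below it.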
